A study of Mus musculus with 8 samples.

Results

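Signalling and identity genes of striatal projection neurons were followed in mouse frontal cortex. The 9 genes Ppp1r1b, Pde10a, Pde1b, Adcy5, Gnal, Gng7, Rgs9, Rasd2 and Meis2 were chosen by symbol from the 55536 genes of a count table. The rule names genes by symbol and uses no measured value, but it was written with earlier results of these libraries known. All 9 passed the filter on low counts. The table held 8 libraries from mice 8 weeks of age, 4 from WT and 4 from HAR123-KO animals. In HAR123-KO mice an enhancer that lies within an intron of Smg6 is deleted in every tissue, since the deletion was made with CRISPR-Cas9 in C57BL/6J zygotes, and WT mice were littermates. The study asked which frontal cortex genes HAR123 regulates, as a route to its part in cognitive flexibility. The labels give neither treatment nor sex and do not say whether a library is 1 mouse, so p-values measure the spread between these libraries. Striatum was not analysed here.

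Striatal projection neurons are the output cells of the striatum and receive dopamine on D1 or D2 receptors. In these cells the G protein Golf, with the alpha subunit encoded by Gnal and a gamma subunit encoded by Gng7, activates the adenylyl cyclase encoded by Adcy5. The cAMP it makes activates protein kinase A, which phosphorylates DARPP-32, a phosphatase inhibitor encoded by Ppp1r1b, and is broken down by phosphodiesterases such as those encoded by Pde10a and Pde1b. Rgs9 and Rasd2 encode regulators of this signalling, and Meis2 encodes a transcription factor of the same neurons. Most of these genes are known for high expression in striatum and lower expression in cortex.

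Total counts ran from 13528251 to 17051001 per library. Between 55.1% and 58.0% of them lay on Gm42418, a gene that overlaps ribosomal RNA, and counts of nuclear protein-coding genes ran from 2786320 to 3732172. The label of the tissue was checked against markers of cortical excitatory neurons. All 5 listed markers were present, with Slc17a7, the vesicular glutamate transporter, at 3647 ± 47.2 normalized counts in WT (SD, n = 4). Levels below are normalized counts, that is, counts divided by the size factor of their library, and levels of different genes are compared per kb of annotated exon. Called means an adjusted p under 0.05 in the DESeq2 Wald test, adjusted over 12758 genes.

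All 9 genes were higher in HAR123-KO frontal cortex. Each was called, and in each the lowest HAR123-KO library was above the highest WT library. The increases ran from 13.1% for Gnal to 37.4% for Rgs9, with a median log2 fold change of 0.36, against -0.002 over all 12758 genes tested. Of all genes tested, 124 (0.972%) were called higher and 91 (0.713%) lower, and the libraries did not overlap with HAR123-KO above WT in 513 (4.02%). Well-counted genes are called more easily, and of the 1991 genes that averaged 400 normalized counts or more, 75 (3.77%) were called higher. The 9 genes belong to that class.

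The shifts were small. With a log2 fold change over 0.5 required as well, as the study required in this tissue, 0 of the 9 genes were called by DESeq2 or edgeR, although all 9 had an unadjusted p under 0.05, and 29 of all genes tested (0.227%) were called higher. The 9 genes together held 0.240% ± 0.0026 (SD, n = 4) of nuclear protein-coding counts in WT against 0.299% ± 0.0025 in HAR123-KO. In bulk tissue, a change in the number of cells of a type and a change in RNA per cell cannot be told apart.

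The G protein subunits moved by different amounts. Gnal (ENSMUSG00000024524, GRCm38 chromosome 18, 67088216 to 67226792, plus strand), which encodes the alpha subunit that stimulates adenylyl cyclase, had 905.2, 979.1, 921.0 and 833.4 normalized counts in WT replicates 1 to 4 and 1031, 1056, 1026 and 1003 in HAR123-KO replicates 1 to 4. Its highest WT library lay just under its lowest HAR123-KO library, and its spread was wider in WT. The log2 fold change was 0.18 ± 0.05 (SE), with a DESeq2 adjusted p of 0.00951. This call did not hold without WT replicate 1 (adjusted p = 0.08), WT replicate 4 (0.165), HAR123-KO replicate 2 (0.109) or HAR123-KO replicate 3 (0.0588), and DESeq2 with the replicate number as a block gave an adjusted p of 1.0. Of the exon bases of Gnal, 852 (7.63%) overlap Mppe1 on the opposite strand, which had 27 to 54 counts per library and a log2 fold change of 0.03 ± 0.22.

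Gng7 (ENSMUSG00000048240, chromosome 10, 80948624 to 81014945, minus strand) encodes the gamma subunit that pairs with Golf in striatum. Its normalized counts were 615.8, 682.6, 656.7 and 615.1 in WT and 805.8, 828.2, 847.8 and 868.9 in HAR123-KO. The groups were far apart relative to their spread, with a log2 fold change of 0.38 ± 0.05 (SE, adjusted p = 1.85e-11 by DESeq2). Gng7 thus rose by 30.4% where Gnal rose by 13.1%, and the log2 ratio of Gng7 to Gnal was higher by 0.20 in HAR123-KO, without overlap between the genotypes.

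Adcy5 (ENSMUSG00000022840, chromosome 16, 35154877 to 35305738, plus strand), the main adenylyl cyclase of striatal projection neurons, had 1319, 1294, 1273 and 1341 normalized counts in WT. In HAR123-KO it had 1587, 1601, 1586 and 1621. Both groups were tight and far apart. The level rose by 22.3%, a log2 fold change of 0.29 ± 0.04 (SE, adjusted p = 8.02e-13 by DESeq2).

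Both phosphodiesterases rose. Pde10a (ENSMUSG00000023868, chromosome 17, 8525372 to 8986648, plus strand), which breaks down cAMP and cGMP, had 1506, 1641, 1547 and 1544 normalized counts in WT against 1999, 1895, 1927 and 1807 in HAR123-KO. It was the most counted of the 9 genes, and its log2 fold change was 0.29 ± 0.04 (SE, adjusted p = 2.42e-12 by DESeq2). Pde1b (ENSMUSG00000022489, chromosome 15, 103503034 to 103530052, plus strand), which is activated by calcium and calmodulin, had 848.9, 844.2, 836.3 and 872.9 in WT and 1104, 1153, 1093 and 1141 in HAR123-KO. Its groups were tight and far apart, and it rose by 32.0%, a log2 fold change of 0.40 ± 0.04 (SE, adjusted p = 2.65e-17 by DESeq2), the smallest adjusted p of the 9 genes.

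Ppp1r1b (ENSMUSG00000061718, chromosome 11, 98348404 to 98357796, plus strand), the gene for DARPP-32, had 855.6, 816.4, 812.6 and 848.3 normalized counts in WT. Its HAR123-KO counts were 1001, 1108, 1051 and 1102, with replicate 1 lowest and still well above every WT library. The log2 fold change was 0.36 ± 0.05 (SE, adjusted p = 2.27e-12 by DESeq2). On the opposite strand, 1700003D09Rik covers 460 (15.7%) of its exon bases and had 0 to 1 counts per library.

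The regulators included the gene with the largest fold change among the 9. Rgs9 (ENSMUSG00000020599, chromosome 11, 109225355 to 109298129, minus strand), whose protein speeds the turn-off of G protein alpha subunits of the Gi and Go class, had 410.9, 403.6, 389.8 and 402.2 normalized counts in WT against 556.0, 535.3, 568.7 and 547.7 in HAR123-KO. The gap between the groups was many times the spread within them, and the log2 fold change was 0.46 ± 0.06 (SE, adjusted p = 1.2e-11 by DESeq2). Rasd2 (ENSMUSG00000034472, chromosome 8, 75213944 to 75224113, plus strand), the gene for the small GTPase Rhes, had 523.5, 498.3, 587.2 and 542.4 in WT and 665.5, 688.4, 676.1 and 750.8 in HAR123-KO. Rasd2 varied more between libraries, with WT replicate 3 and HAR123-KO replicate 4 at the top of their groups, and its log2 fold change was 0.37 ± 0.06 (SE, adjusted p = 6.47e-08 by DESeq2). With the replicate number as a block its DESeq2 adjusted p was 0.0989. Without WT replicate 3 and HAR123-KO replicate 4 together, all 9 genes were still called.

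Meis2 (ENSMUSG00000027210, chromosome 2, 115863064 to 116065839, minus strand), a homeobox gene of the TALE class that marks developing and adult striatal neurons, had 496.5, 510.6, 499.1 and 511.4 normalized counts in WT. In HAR123-KO it had 589.7, 630.4, 604.0 and 622.1. The log2 fold change was 0.28 ± 0.05 (SE, adjusted p = 0.0001 by DESeq2), and with the replicate number as a block the adjusted p was 0.974.

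**Figure D1:**
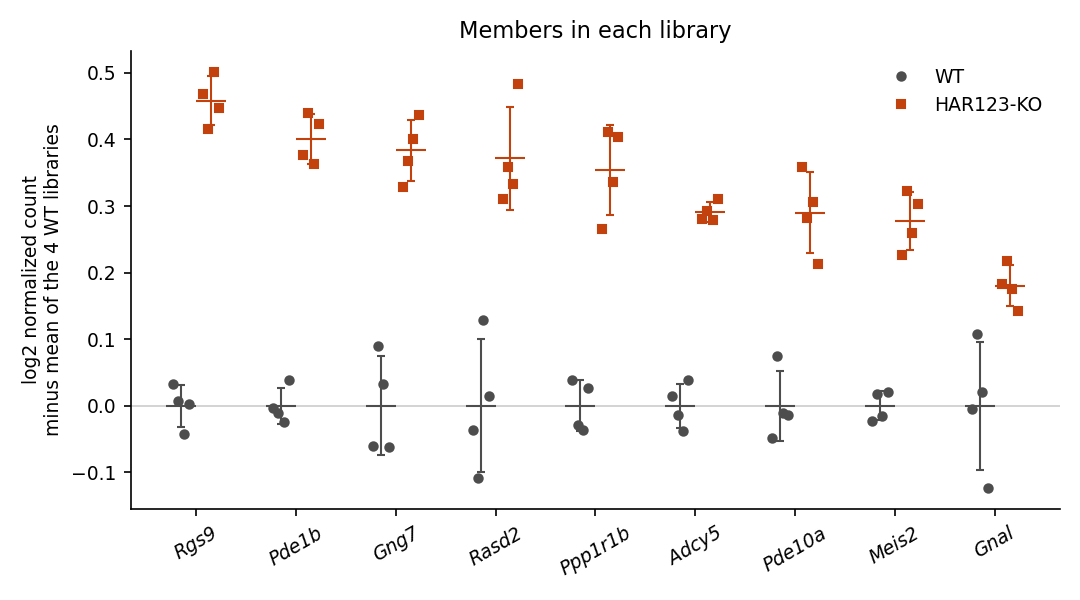
Log2 normalized count of each gene (x axis, ordered by fold change) in each library, minus the mean of the 4 WT libraries (y axis), with circles for WT, squares for HAR123-KO, and the mean and SD of 4 libraries as a bar with whiskers. In all 9 genes the HAR123-KO libraries lie above the WT libraries, with the widest gap in Rgs9 and the narrowest in Gnal.

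The rise was spread evenly over the HAR123-KO libraries. The median of the 9 genes against the WT mean was 0.31, 0.36, 0.33 and 0.40 on the log2 scale in HAR123-KO replicates 1 to 4. Within a genotype, between 3 and 6 of the 9 genes were above their own group mean in any library. The 9 genes lie on 8 chromosomes. Ppp1r1b and Rgs9 share chromosome 11 with Smg6 and lie 23.2 Mb and 34.1 Mb from it. The nearest measured genes on either side of each member, 18 in all that averaged 10 normalized counts or more, were examined too. Of the 16 tested, 0 were called by DESeq2, edgeR or limma-voom, and 1 had an unadjusted p under 0.05. Over all 18, log2 fold changes had a median of 0.003 and ran from -0.60, in a gene with no adjusted p, to 0.20. Stard3, which lies 0.572 kb from Ppp1r1b, had a log2 fold change of 0.01 ± 0.15 (SE).

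Because the members moved together, the 250 bases upstream of their transcription starts were searched on both strands for 3 motifs in RefSeq promoter sequences of GRCm38.p6. Entries existed for 7 of the 9 genes, with 11 starts, and none for Ppp1r1b or Gnal. The cAMP response element TGACGTCA, through which protein kinase A acts on transcription, was in 0 of 11 windows and in 1.55% of the 32851 windows of all promoters. Its short form TGACG, which the full element contains, was in 1 of 11 and 17.8% of all. TGACAG, the core bound by Meis proteins, was in 3 of 11 windows, of Gng7 and Pde1b, and in 15.9% of all. A match is a description of letters and not of a bound site. For the 3 genes with the largest fold changes that have a window outside annotated exons, the window at the first listed start is shown 5′ to 3′ on the strand of the gene, with a motif match in capitals.
Rgs9, chr11:109298182-109298431, minus strand: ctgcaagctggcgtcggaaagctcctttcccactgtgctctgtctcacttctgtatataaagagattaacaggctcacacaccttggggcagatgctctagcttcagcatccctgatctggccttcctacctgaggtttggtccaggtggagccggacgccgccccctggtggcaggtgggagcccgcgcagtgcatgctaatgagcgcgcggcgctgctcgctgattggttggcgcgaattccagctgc
Pde1b, chr15:103502784-103503033, plus strand: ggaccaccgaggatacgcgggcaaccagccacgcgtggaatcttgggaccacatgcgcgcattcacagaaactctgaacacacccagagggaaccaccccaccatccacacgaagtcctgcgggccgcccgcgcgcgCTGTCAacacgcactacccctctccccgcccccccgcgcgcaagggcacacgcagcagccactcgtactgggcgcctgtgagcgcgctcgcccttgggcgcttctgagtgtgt
Rasd2, chr8:75213694-75213943, plus strand: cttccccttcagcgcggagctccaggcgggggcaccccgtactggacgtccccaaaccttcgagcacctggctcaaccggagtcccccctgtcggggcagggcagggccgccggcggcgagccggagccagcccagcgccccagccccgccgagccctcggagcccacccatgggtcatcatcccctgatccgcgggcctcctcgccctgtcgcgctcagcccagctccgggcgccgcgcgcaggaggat
The capitals in the Pde1b window are TGACAG read on the opposite strand, and the windows of Rgs9 and Rasd2 held none of the 3 motifs. The GC content of the 3 windows was 59.6% for Rgs9, 67.2% for Pde1b and 75.2% for Rasd2, against a median of 52.4% over all promoter windows. A second Pde1b window outside annotated exons, at chr15:103506876-103507125 and not shown, had a GC content of 44.8% and none of the 3 motifs.

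WT frontal cortex expressed all 9 genes, at levels per kb of exon between the 68.7th percentile of the genes tested for Meis2 and the 97.0th for Ppp1r1b. Ppp1r1b was highest, at 284.6 ± 7.48 normalized counts per kb (SD, n = 4). Next came a group of 4 genes, Adcy5 at 181.9 ± 4.17, Gng7 at 169.7 ± 8.72, Rasd2 at 169.3 ± 11.8 and Pde1b at 157.6 ± 2.93. Neighbours in this group overlapped between WT libraries, which made 3 of the 8 neighbouring pairs of the order. The others did not overlap, with Pde10a at 121.4 ± 4.47, Gnal at 81.4 ± 5.37, Rgs9 at 62.9 ± 1.38 and Meis2 at 41.9 ± 0.64.

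The order by fold change was a different one. Of its 8 neighbouring pairs, 0 had a log2 ratio without overlap between the genotypes, so the order of neighbours is not resolved. Rgs9, second lowest by level, had the largest fold change, and Ppp1r1b, highest by level, stood in the middle of the order. Across the 9 genes, Spearman's rho between log2 fold change and log2 WT level per kb was 0.2 and Pearson's r was 0.21. This is a description over 9 genes measured in the same libraries, and the WT level enters the fold change too. Without Meis2, the lowest by level, rho was -0.095 over 8 genes, and with counts not divided by exon length it was -0.45, so the sign depends on the scale and on a single gene. Adcy5 and Rgs9 show the lack of order, since Adcy5 had a WT level of 181.9 per kb and rose by 22.3%, and Rgs9 had 62.9 per kb and rose by 37.4%.

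Counted as a difference of levels, the genes that cortex expresses more gained more. The difference, HAR123-KO minus WT, was 79.3 normalized counts per kb for Ppp1r1b, 51.5 for Gng7, 50.5 for Pde1b, 49.6 for Rasd2 and 40.6 for Adcy5. It was 27.0 for Pde10a, 23.5 for Rgs9, 10.7 for Gnal and 8.9 for Meis2. Spearman's rho of this difference with the WT level was 0.87 over the 9 genes, which a similar percent increase of every gene gives by arithmetic.

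Fold changes of different members were set against each other through the log2 ratio of 2 genes in each library. Of 36 pairs of members, 9 had ratios that did not overlap between genotypes, a description with no test, since the share among pairs of other genes was not computed. The widest contrast was Rgs9 to Gnal, with a log2 ratio of -1.18 ± 0.10 in WT against -0.90 ± 0.06 in HAR123-KO (SD, n = 4). Ratios of Rgs9 to Adcy5, Pde10a and Meis2 differed by 0.17, 0.17 and 0.18, also without overlap. Ratios of Pde1b to Ppp1r1b, Adcy5 and Meis2 differed by 0.05, 0.11 and 0.12 without overlap, and the ratio of Pde1b to Gnal by 0.22. The remaining such pair was Gng7 to Gnal, given above.

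**Figure D2:**
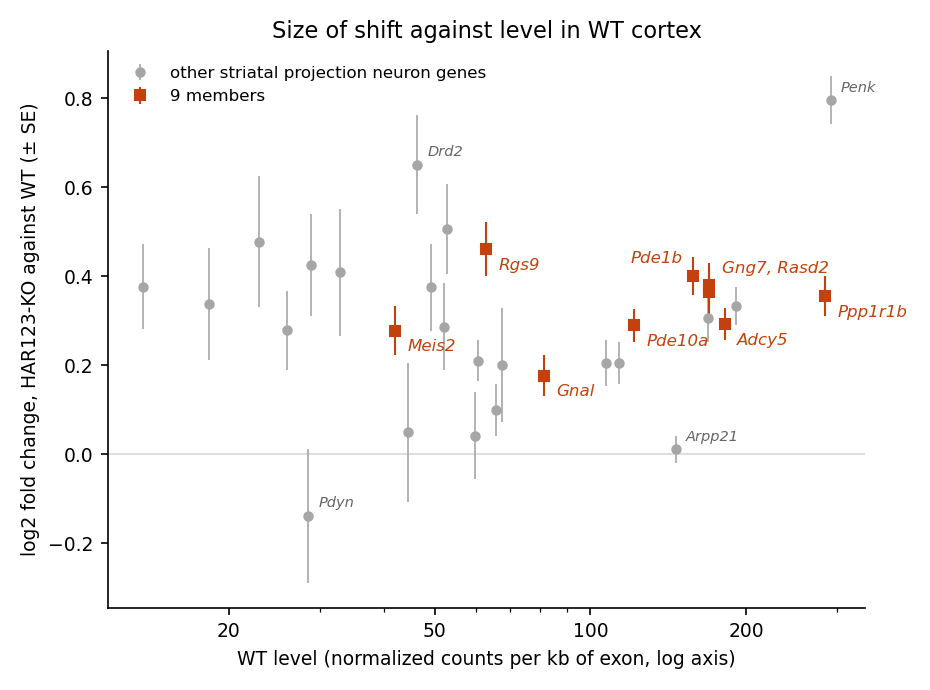
Log2 fold change, HAR123-KO against WT, with its SE (y axis) against WT level in normalized counts per kb of exon (x axis, log scale) for the 9 genes (squares) and 22 other striatal projection neuron genes averaging 50 normalized counts or more (circles). The 9 genes show no clear order with level (rho 0.2), and the circles run from Pdyn at -0.14 to Penk at 0.80.

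Other genes of striatal projection neurons were counted in a list of 31, of which 30 had a row and 27 were tested. Of these, 11 were called higher and 0 lower by DESeq2, 24 had a positive log2 fold change, and the median was 0.31. edgeR called 15 higher and 0 lower, limma-voom 12 and 0, and 20 had an unadjusted DESeq2 p under 0.05. The number called was 7 without WT replicate 1, without WT replicate 2 or without HAR123-KO replicate 3, and 2 with the replicate block. The share of all tested genes called higher was 0.972%. Of 15 shared markers tested, 7 were called higher, among them Foxp1, Ptpn5, Rasgrp2, Scn4b, Ano3 and Actn2. Scn4b, a sodium channel subunit, had a log2 fold change of 0.33 ± 0.04 (SE, adjusted p = 1.71e-12 by DESeq2).

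Genes that mark the indirect type of neuron, which carries D2 receptors, ranged from -0.16 to 0.80 on the log2 scale. Penk, the enkephalin precursor, had 497.6, 482.8, 445.7 and 477.1 normalized counts in WT against 851.8, 814.9, 835.5 and 791.2 in HAR123-KO, a log2 fold change of 0.80 ± 0.05 (SE, adjusted p = 7.2e-46 by DESeq2). Drd2, the D2 receptor, had 0.65 ± 0.11 and Adora2a, an adenosine receptor, 0.51 ± 0.10, and these made 3 called of 6 tested, with a median of 0.64. Of 6 tested genes of the direct type, Drd1, the D1 receptor, was called, at 0.38 ± 0.10 (DESeq2 adjusted p = 0.012), with overlap between the libraries. Chrm4, a muscarinic receptor, had 0.20 ± 0.13 and was not called, and the direct list had a median of 0.29 and ran from -0.14 to 0.71. The value of 0.71 was that of Slc35d3, which was not called (adjusted p = 0.255 by DESeq2) and was named after its value was seen. Whether the direct and indirect lists differ was not tested.

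Some striatal neuron genes that cortex expresses well did not pass the test. Arpp21, another substrate of protein kinase A, had 146.1 ± 2.42 normalized counts per kb in WT, close to Pde1b, and a log2 fold change of 0.01 ± 0.03 (SE). Bcl11b, a transcription factor of striatal and of deep cortical projection neurons, had 0.10 ± 0.06. Both were named after their values were seen. Over 31 striatal genes, members included, Spearman's rho of fold change with WT level per kb was -0.004. Of the 15 listed genes at or above the level of Meis2, 9 were called, with a median of 0.21, and of the 12 below it 2 were called, with a median of 0.39.

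Other genes of the same signalling pathway were counted in a list of 56. Of these, 54 were tested, 1 was called higher, 1 lower and 52 not, with a median log2 fold change of 0.007. The gene called higher was Ppp3ca, a catalytic subunit of calcineurin, the phosphatase that removes the protein kinase A phosphate from DARPP-32, at 0.18 ± 0.02 (SE, adjusted p = 5.21e-10 by DESeq2). The gene called lower was Gnao1, the Go alpha subunit, at -0.11 ± 0.03 (adjusted p = 0.0157), a call that was lost without WT replicate 1, 2 or 3 or HAR123-KO replicate 2 or 3. edgeR called 4, these 2 with Pde7b at 0.22 and Pbx3 at 0.53, and limma-voom 2, while 9 genes had an unadjusted DESeq2 p under 0.05.

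The pathway genes that WT cortex expressed most were taken class by class, and their values are log2 fold changes. Among 12 other G protein genes, Gnb1 had -0.05 ± 0.03 (SE) and Gng3 -0.05 ± 0.07. Of 7 other adenylyl cyclases, 0 were called by DESeq2, edgeR or limma-voom and 1 had an unadjusted p under 0.05, with Adcy1 at -0.05 ± 0.03 and Adcy2 at -0.13 ± 0.06. Of 9 other phosphodiesterases, DESeq2 called 0, limma-voom 0 and edgeR 1, and 1 had an unadjusted p under 0.05, with Pde1a at 0.06 ± 0.05 and Pde8b at -0.10 ± 0.07. Prkar1b, a regulatory subunit of protein kinase A, had -0.08 ± 0.03 and was not called. Of 6 tested genes for RGS proteins and their partners, 0 were called by any of the 3 tools and 1 had an unadjusted p under 0.05, with Rgs4 at -0.09 ± 0.03 and Rgs7bp at 0.01 ± 0.04. Of 7 other genes of the Meis, Pbx and Pknox families, DESeq2 called 0, limma-voom 0 and edgeR 1, and 1 had an unadjusted p under 0.05, with Pbx2 at -0.10 ± 0.12.

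Each member was also compared with a relative of its own family through their log2 ratio in each library. The ratio was higher in HAR123-KO without overlap in 5 of 9 pairs. It was higher by 0.53 for Gng7 to Gng2, 0.47 for Ppp1r1b to Ppp1r1a, 0.44 for Rgs9 to Rgs7, 0.34 for Pde1b to Pde1a and 0.21 for Gnal to Gnas. Each of these 5 had a two-sided exact permutation p of 0.0286, the smallest that 70 assignments allow, and 0.0515 after Benjamini-Hochberg adjustment over the 9 pairs, so none passed after adjustment. The other 4 pairs overlapped, at 0.46 for Adcy5 to Adcy6 (exact permutation p = 0.0857), 0.135 for Pde10a to Pde2a (0.257), 0.20 for Meis2 to Meis1 (0.4) and 0.52 for Rasd2 to Rasd1 (0.4). Rasd1 had a mean of 7.12 normalized counts and no adjusted p. The pairs were chosen after the files were seen.

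**Figure D3:**
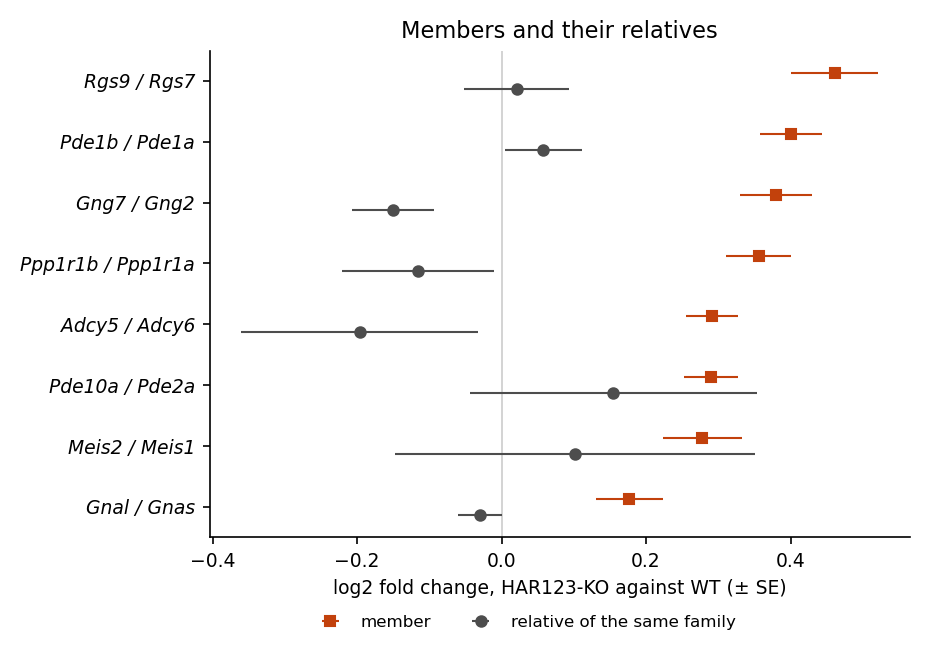
Log2 fold change with SE (x axis) of 8 members (squares) and of the relative of the same family (circles), 1 pair per row, with Rasd2 and its little-counted relative Rasd1 left out. Members lie between 0.18 and 0.46, and the relatives lie between -0.20 and 0.16.

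Markers of other cells and regions moved in the same comparison. Choroid plexus markers summed to 93.45 to 109.1 normalized counts in WT libraries and 760.4 to 785.3 in HAR123-KO, with both tested genes higher (Ttr and Kl, of 11 listed). Oligodendrocyte markers summed to 14690 to 15150 and 16600 to 16970, with 3 of 7 higher, Mbp and Cnp among them. Mbp, a myelin protein gene, had a log2 fold change of 0.18 ± 0.02 (SE), close to that of Gnal.

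Other lists held genes called lower. Markers of claustrum and layer 6b summed to 691.0 to 772.3 in WT and 508.7 to 548.6 in HAR123-KO, with Nr4a2 and Gnb4 lower, 2 of 5 tested. Excitatory neuron markers summed to 18550 to 18900 and 17180 to 17530, with Slc17a7, Camk2a and Nrgn lower, 3 of 5. Upper layer markers summed to 4278 to 4436 and 3935 to 4153, with Cux2 lower, 1 of 8. Astrocyte markers summed to 23190 to 23930 and 21580 to 22180, with Slc1a3, Gja1 and Slc1a2 lower, 3 of 8. Slc1a2 alone made most of this sum, with a mean of 18760 in WT and 17450 in HAR123-KO. The median log2 fold change of the 8 astrocyte markers was -0.06, and 2 were positive. Endothelial markers summed to 425.6 to 443.1 and 325.6 to 346.7, with Vwf lower, 1 of 6.

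Markers shared by GABA neurons summed to 3062 to 3142 in WT and 2952 to 3057 in HAR123-KO, with 1 of 4 lower. Cortical interneuron markers summed to 867.0 to 938.8 and 810.0 to 932.8, with 0 of 6 called by DESeq2 or edgeR and 0 with an unadjusted p under 0.05. Striatal cholinergic neuron markers summed to 26.27 to 40.53 and 34.81 to 55.3, and the 1 tested, Slc5a7, had 0.97 ± 0.31 (SE, adjusted p = 0.0781 by DESeq2). Deep layer markers summed to 1550 to 1594 and 1670 to 1731, with 0 of 8 called by DESeq2, 3 by edgeR and 2 by limma-voom, and 4 with an unadjusted p under 0.05. Microglia markers summed to 771.2 to 869.3 and 759.6 to 795.9, with 0 of 6 called by DESeq2, edgeR or limma-voom and 0 with an unadjusted p under 0.05. The 6 olfactory bulb markers summed to 14.41 to 22.47 and 14.89 to 27.65, none was tested, and Tbx21 was at 0 in every library. The part of any of these cells, or of the tissue dissected, in the shift of the 9 genes was not tested.

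**Figure D4:**
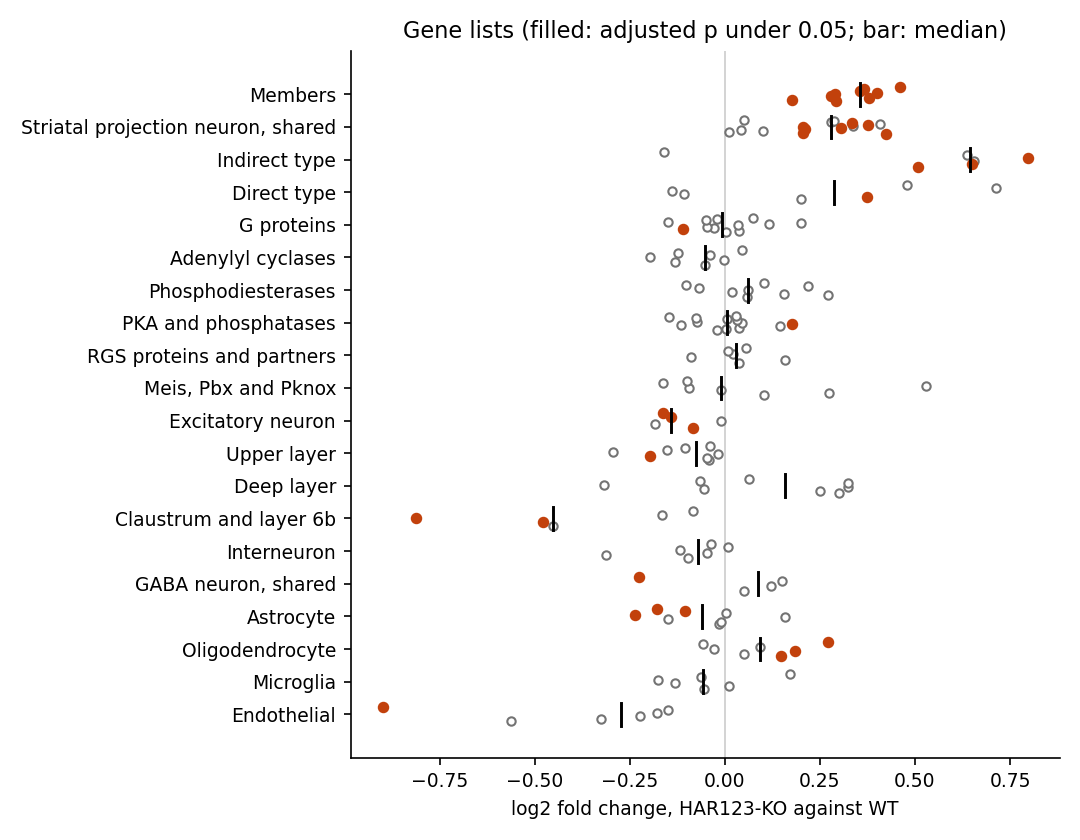
Log2 fold change, HAR123-KO against WT (x axis), of each tested gene (points) in the lists named on the y axis, filled where the DESeq2 adjusted p is under 0.05, with the median as a bar. The 9 members and the other striatal projection neuron lists have medians from 0.28 to 0.64, and the pathway lists have medians from -0.05 to 0.06. Choroid plexus, cholinergic and olfactory bulb markers are left out.

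The genes most like the members were sought by Pearson's r, over the 8 libraries, with the mean of the members' log2 normalized counts, among 9271 other genes with a mean of at least 50. The 5 closest were Ttr (r = 0.997), Tmem181b-ps (0.994), Cnksr2 (0.987), Penk (0.984) and Ppp3ca (0.977). All 5 were called higher, and the likeness is mostly the split between genotypes. Cnksr2, a scaffold protein of synapses, had 1553 ± 41.6 normalized counts in WT against 1924 ± 20.6 in HAR123-KO (SD, n = 4). Ppp3ca had 4080 ± 47.6 and 4612 ± 70.8. Tmem181b-ps is a pseudogene whose reads can belong to near-identical copies, so its log2 fold change of 0.43 ± 0.06 (SE) is uncertain.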

How the data were processed

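Total RNA of frontal cortex was depleted of ribosomal RNA and made into directional libraries. The authors aligned paired reads with STAR 2.5.2b to GRCm38 and counted reads over the exons of each gene with featureCounts, and the deposited values are raw counts. Strand and multiple-match settings are not given in the sources used here, so overlapping genes can share counts. All 55536 identifiers were found in GENCODE M21 with the same start and end, and symbols were taken from there. Libraries were grouped by title.

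DESeq2 1.42.0 (R 4.3.3) was fitted to all genes and 8 libraries with genotype as the only term, and p-values were Benjamini-Hochberg adjusted over 12758 genes, which its independent filter (alpha 0.1) kept for a mean above 17.6 normalized counts. Alternatives were edgeR 4.0.16 and limma-voom (limma 3.58.1), TMM or protein-coding size factors, a requirement of 10 counts in at least 4 libraries, the independent filter switched off, fold limits, the replicate number as a block, and leaving out each library. Log2 ratios of members to relatives used a pseudocount of 0.5 and a two-sided exact permutation test. Log2 ratios between members used neither. Errors are spreads between libraries or fitted standard errors.

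The 9 genes and all lists were chosen with earlier results of these data known. Named were all 9, the genes called in the other lists and, of each list, the 2 with the highest WT level, the genes called among markers, the 5 genes most alike, and nearest neighbours. Some genes that this rule names are not reported here. The pathway list held 56 genes, the striatal list 31, and 13 marker lists 88; Gpr52 and Ctgf had no row. Promoter sequences are from RefSeq (GRCm38.p6).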

Additional observations from a re-analysis of the deposited data

How the results depend on the processing

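All 9 members were called higher under edgeR, limma-voom, both other scalings and both other filters. Over 126 alternative values of the 9 log2 fold changes, 119 stayed called, 7 lost the call and 0 changed sign. No scaling moved the median of all genes by more than 0.005. The 7 lost calls are those of Gnal without 4 single libraries and those of Gnal, Rasd2 and Meis2 under the replicate block, which left 6 of 9. With each library left out, the number of members called ran from 8 to 9. With a minimum log2 fold change of 0.5, or with the stricter limits of the study (log2 fold change over 1 at an adjusted p under 0.01), it was 0. The number of other pathway genes called was 2, and 4 by edgeR, 0 with the replicate block, 0 under each of the fold limits, and 1 to 2 with a library left out. The number of other striatal genes called was 11, and 2 with the replicate block, 3 with a minimum log2 fold change of 0.5, 0 under the stricter limits, and 7 to 12 with a library left out (7 without WT replicate 1, WT replicate 2 or HAR123-KO replicate 3). The replicate block called 22 genes of the whole table against 215 without it. Samples of the same number did not deviate together (r from -0.0154 to 0.0177 over the 4 numbers). These values cannot show how the libraries were numbered, so whether the numbers are a pairing is not known. The rho of fold change with WT level was 0.2, from 0.133 to 0.283 with a library left out, -0.45 for counts not divided by exon length, 0.867 for the difference of levels, -0.095 without Meis2 and -0.004 with the other striatal genes added. The last of these, the member to relative ratios and the joint removal of 2 libraries were chosen after seeing the data. Depth limits genes under 17.6 normalized counts, which had no adjusted p.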
